A study of Pan troglodytes with 217 samples.

Results

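FGF4, the receptors FGFR1, FGFR2, FGFR3 and FGFR4, the feedback inhibitors SPRY2, SPRY4 and DUSP6, and the transcription factors ETV4 and ETV5 were followed in single cells of chimpanzee blastoids. The 10 genes were chosen by name, as a ligand, its receptors and genes that respond to the kinase ERK, and each of the 10 matched exactly 1 of the 33729 deposited gene identifiers. Blastoids are blastocyst-like structures that form from naive pluripotent stem cells, and here they were taken on day 4. Their cells were sequenced one at a time by SMART-seq2, which amplifies whole transcripts of 1 cell into a separate library and does not tag molecules.

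All deposited cells belonged to 1 condition. The labels describe them as differentiated in vitro from naive chimpanzee stem cells. The naive induced pluripotent stem cells had been propagated in a medium with the MEK inhibitor PD032590, the EZH2 inhibitor EPZ-6438, XAV939, Gö6983, LIF, Activin-A and IL6. Aggregates were then moved to a medium with PD and the activin receptor inhibitor A83. A medium with A83 but without PD followed, and finally N2B27 alone. The media with A83 also held LPA and the ROCK inhibitor Y-27632. MEK is the kinase directly upstream of ERK, so every cell had met an inhibitor of the studied pathway before the last media changes, and there was no sample without it. Most of the mural trophectoderm was cut away by hand, which limits what the shares of cell classes can show. It was dissociated apart from the inner cells and polar trophectoderm, and for longer. The part of this handling in the levels was not tested. Neither the labels nor the methods assign a cell to a blastoid, a line or a batch. The cells were therefore treated as 1 sample, and no test between classes was computed.

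FGF4 is a secreted ligand that binds FGF receptors together with heparan sulfate and activates ERK through RAS, RAF and MEK. Active ERK induces its own inhibitors, among them Sprouty proteins and the ERK phosphatase DUSP6, and the ETS-family factors ETV4 and ETV5. In the mouse blastocyst, FGF4 is made by epiblast cells and acts through FGFR1 and FGFR2 on the cells that form hypoblast.

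Cells with at least 8000 detected genes entered the comparison and 24 others did not. Those that entered had between 1679888 and 25630392 reads on genes (median 3960857). Clustering gave 4 groups, which were named by marker lists that contain none of the 10 genes. The epiblast-like class held 50 cells, the hypoblast-like class 32 and the trophectoderm-like class the rest. Trophectoderm-like cells lay in a pair of clusters of 60 and 51 cells, called CCR7-low and CCR7-high after the marker that told them apart. Epiblast-like cells all had at least 3 epiblast markers at 10 CPM or more (a gene's reads per 1000000 reads on genes), and GATA3, a trophectoderm factor, had a pooled level of 691 CPM in trophectoderm-like and 70.4 CPM in epiblast-like cells. PDGFRA, a receptor of early hypoblast, had reads in 32 of 32 hypoblast-like cells, but GATA4 and SOX17, a pair of defining hypoblast factors, had reads in 21 and 24 of them. Epiblast markers were also found in the hypoblast-like class, where 23 of 32 cells had at least 3 of them at 10 CPM or more. The same held for 20 trophectoderm-like cells, while at least 3 trophectoderm markers reached this level in 48 epiblast-like cells and 31 hypoblast-like cells. At least 5 markers of each of 2 classes stood at 10 CPM or more in 21 epiblast-like cells, 28 hypoblast-like cells and 9 trophectoderm-like cells, and the part of such cells in the levels given here was not tested beyond leaving them out. When the 10 genes and all other FGF pathway genes examined were left out of the clustering, 0 cells changed between the 3 classes.

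The pooled level of a class is its summed reads of a gene over its summed reads of all genes, in CPM, with an exact 95% Poisson interval, and the levels of single cells are given beside it. Reads are amplified copies and not molecules, so these intervals and the exact binomial intervals of shares cover counting error only. A class difference was counted when the ratio of (CPM + 1) was at least 4-fold, which is 2 on the log2 scale.

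FGF4 was found mainly in epiblast-like cells. Its pooled level was 109.5 CPM in this class (95% interval 108.1 to 110.9), 4.42 CPM in hypoblast-like cells (4.06 to 4.80) and 0.939 CPM in trophectoderm-like cells (0.857 to 1.03). In single epiblast-like cells it ranged from 0 to 498 CPM with a median of 88.3 CPM, and the middle 50% of cells lay between 54.1 and 149.99 CPM. The median hypoblast-like cell had no FGF4 read, and the highest reached 57.9 CPM. The median trophectoderm-like cell had none either, and the highest reached 28.2 CPM. The ranges of the middle 50% of cells did not overlap between epiblast-like and hypoblast-like cells, although single cells of both other classes reached the lower part of the epiblast-like range. On the scale of (CPM + 1), FGF4 was 20.4-fold higher in epiblast-like than in hypoblast-like cells (log2 ratio 4.35) and 57-fold higher than in trophectoderm-like cells (log2 ratio 5.83). Because FGF4 was also among the 10 genes with the largest ratio for the epiblast-like cluster, these ratios describe the class and are no independent evidence for it.

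FGF4 reads were found in 46 of 50 epiblast-like cells (92%, exact 95% interval 80.8% to 97.8%). They were found in 11 of 32 hypoblast-like cells (34.4%, 18.6% to 53.2%) and 16 trophectoderm-like cells (14.4%, 8.47% to 22.4%). After every cell was thinned to 2532312 reads, which left out 20 shallower cells, the shares were 91.7%, 32% and 14%. The 4 epiblast-like cells without an FGF4 read all had NANOG, an epiblast factor, at 10 CPM or more. All 5 hypoblast-like cells with FGF4 at 10 CPM or more also had at least 3 epiblast markers and NANOG at 10 CPM or more. Among the other 27 hypoblast-like cells, 18 had at least 3 epiblast markers and 11 had NANOG at that level. The 4 trophectoderm-like cells with FGF4 at 10 CPM or more all had at least 3 epiblast markers, against 16 of all other cells of the class. The summed epiblast markers of these 4 cells ranged from 245.3 to 765 CPM, below the 1136 CPM of the lowest epiblast-like cell. Doublets were not called, and the part of mixed cells in these FGF4 reads was not tested.

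**Figure D1:**
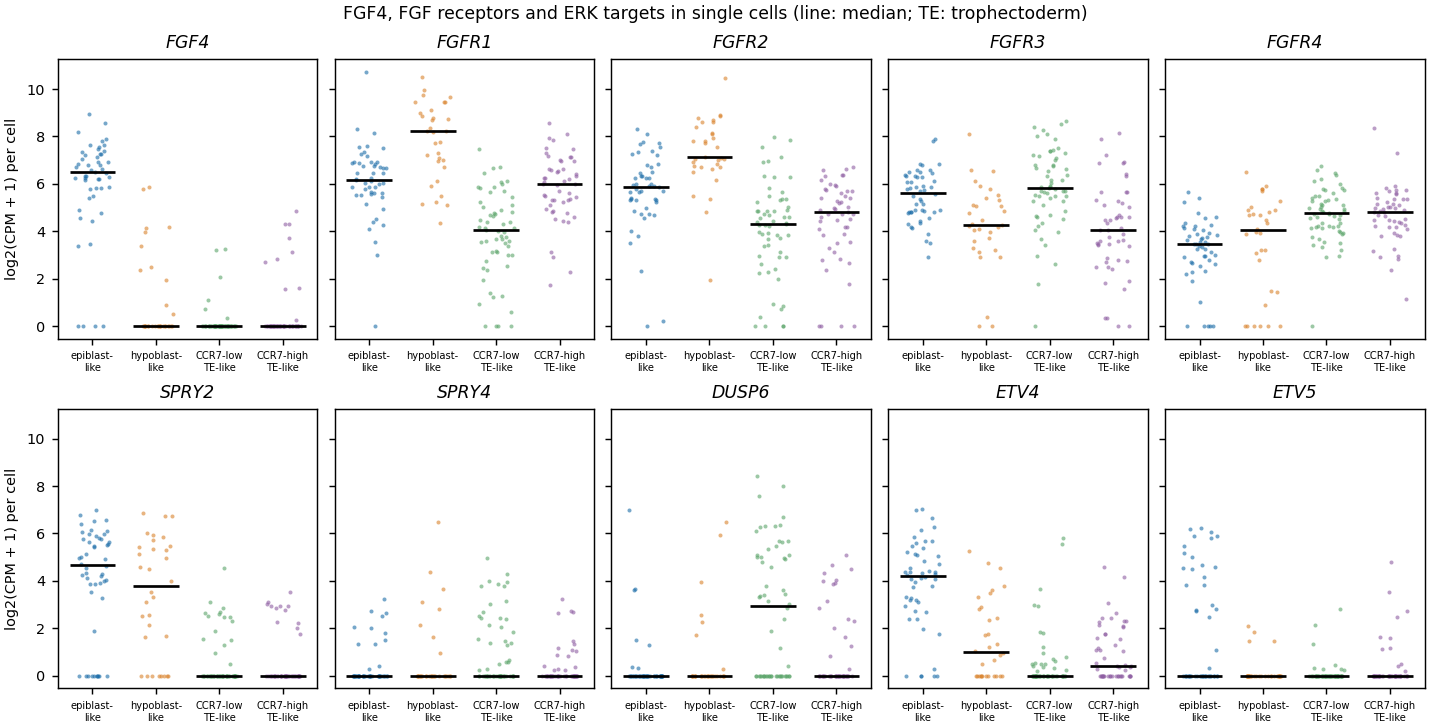
Level of the 10 genes in each cell, as log2(CPM + 1), for epiblast-like (n = 50), hypoblast-like (n = 32), CCR7-low (n = 60) and CCR7-high (n = 51) trophectoderm-like (TE-like) cells; each point is 1 cell and the black line the median. FGF4, ETV4 and ETV5 stand highest in epiblast-like cells, FGFR1 and FGFR2 in hypoblast-like cells, SPRY2 in both, and DUSP6 in a subset of CCR7-low trophectoderm-like cells.

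FGFR1 and FGFR2, the receptors through which FGF4 acts in the mouse blastocyst, had their highest pooled levels in hypoblast-like cells. FGFR1 ranged from 19.2 to 1448 CPM over the 32 hypoblast-like cells, with a median of 295 CPM. In epiblast-like cells it ranged from 0 to 1698 CPM with a median of 71.1 CPM, and in trophectoderm-like cells from 0 to 379 CPM with a median of 29.8 CPM. The order of the medians was hypoblast-like, epiblast-like, trophectoderm-like, and the middle 50% of hypoblast-like cells (119.4 to 523 CPM) lay just above that of epiblast-like cells (47.3 to 117.4 CPM). The pooled levels were 348 CPM (345 to 351), 106.8 CPM (105.4 to 108.15) and 55.3 CPM (54.7 to 56). On the scale of (CPM + 1), the hypoblast-like level was thus 6.20-fold that of trophectoderm-like cells (log2 ratio 2.63) and 3.24-fold that of epiblast-like cells, short of 4-fold, although the median cells were past 4-fold apart (log2 ratio of epiblast-like over hypoblast-like -2.04). A single cell carried 20.3% of the FGFR1 reads of the epiblast-like class, and the level was 86.2 CPM without it. The trophectoderm-like level pooled 24.2 CPM in CCR7-low and 88.3 CPM in CCR7-high cells, and ratios to each cluster were not computed.

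FGFR2 had the same order. It ranged from 2.87 to 1414 CPM in hypoblast-like cells (median 138.4 CPM), from 0 to 321 CPM in epiblast-like cells (median 58.2 CPM) and from 0 to 253.2 CPM in trophectoderm-like cells (median 23.1 CPM). Again the middle 50% of hypoblast-like cells (104.96 to 294 CPM) lay above that of epiblast-like cells (37.3 to 101.1 CPM), while those of epiblast-like and trophectoderm-like cells overlapped. The pooled levels were 225 CPM (222 to 227.1), 75.7 CPM (74.6 to 76.9) and 32.5 CPM (32 to 33). On the scale of (CPM + 1), the hypoblast-like level was 6.73-fold that of trophectoderm-like cells (log2 ratio 2.75) and 2.94-fold that of epiblast-like cells. Reads of both FGFR1 and FGFR2 were present in 32 of 32 hypoblast-like cells.

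Within the hypoblast-like class the 4 receptors did not all vary together. Over its 32 cells, log2(CPM + 1) of FGFR1 correlated with that of the summed hypoblast markers (Pearson's r = 0.82, Spearman's rho = 0.78) and inversely with that of the summed epiblast markers (r = -0.60, rho = -0.61). FGFR4 followed the hypoblast markers too (r = 0.57, rho = 0.66), and FGFR1 and FGFR4 correlated with each other (r = 0.51, rho = 0.58). FGFR1 and FGFR2 had r = 0.11, and FGFR3 had r = -0.40 with the hypoblast markers. These are descriptions over cells of 1 sample that share library preparation and the division by total reads, and no p-value applies to them.

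FGFR3 and FGFR4, which bind overlapping sets of FGF ligands, had their highest pooled level in trophectoderm-like cells. For FGFR3 this came through the CCR7-low cluster, with 81 CPM beside 32.3 CPM in CCR7-high cells. FGFR3 had 57.4 CPM (56.7 to 58) in trophectoderm-like cells, 52.4 CPM (51.4 to 53.4) in epiblast-like cells and 29.4 CPM (28.4 to 30.3) in hypoblast-like cells. The first pair of these stood the other way round by the median cell, which was 48.3 CPM for epiblast-like cells against 38 CPM for trophectoderm-like cells. The highest cells had 401, 240 and 274 CPM in the order trophectoderm-like, epiblast-like, hypoblast-like, and the middle 50% of cells of neighbouring classes overlapped. FGFR4 had 31.6 CPM (31.1 to 32.1) in trophectoderm-like, 19 CPM (18.2 to 19.7) in hypoblast-like and 11.1 CPM (10.6 to 11.5) in epiblast-like cells, with medians of 26.8, 15.4 and 10.1 CPM. Reads of FGFR4 were found in all trophectoderm-like cells but 1, in 26 of 32 hypoblast-like cells and in 45 of 50 epiblast-like cells, and the middle 50% of neighbouring classes overlapped. Neither gene reached a 4-fold ratio between any of the 3 classes.

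Most cells carried several receptors at once. All 4 were at 10 CPM or more in 26 epiblast-like cells (52%), 14 hypoblast-like cells (43.8%) and 50 trophectoderm-like cells, and exactly 3 were so in 21, 14 and 41 cells. FGF4 stood at 10 CPM or more together with at least 1 receptor in 44 of 50 epiblast-like cells. In contrast, FGFR1 or FGFR2 at 10 CPM or more with FGF4 below that level was the state of 27 of 32 hypoblast-like cells and 99 trophectoderm-like cells (89.2%).

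**Figure D2:**
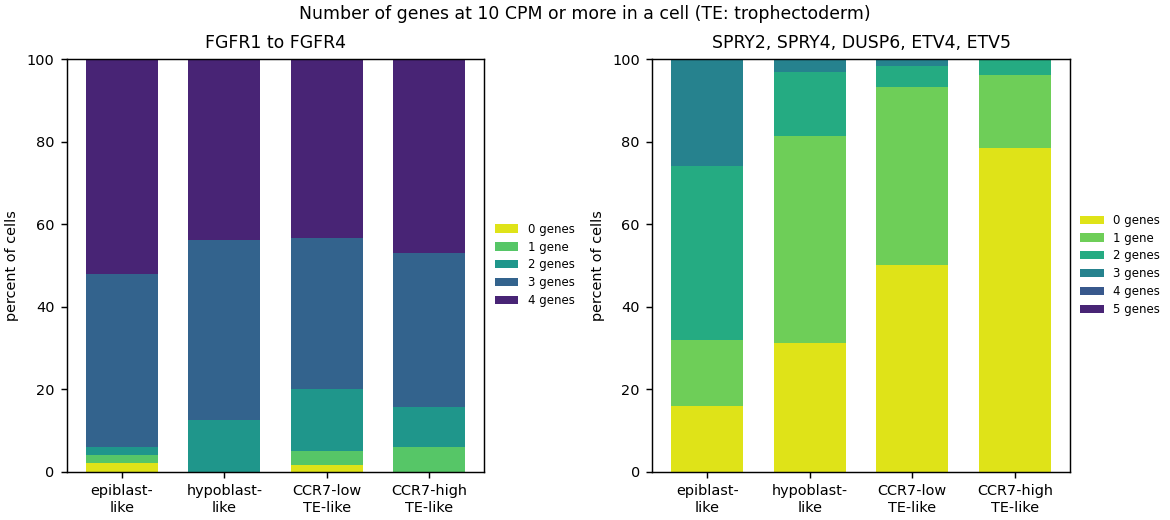
Share of cells (percent) by the number of receptors (left, FGFR1 to FGFR4) and of feedback and ETS genes (right, SPRY2, SPRY4, DUSP6, ETV4 and ETV5) at 10 CPM or more, in the epiblast-like, hypoblast-like and both trophectoderm-like (TE-like) clusters. Most cells of each group have 3 or 4 receptors at this level, while 16% of the epiblast-like, 31.3% of the hypoblast-like, 50% of the CCR7-low and 78.4% of CCR7-high trophectoderm-like cells have none of the feedback and ETS genes at this level.

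SPRY2, a Sprouty protein that restrains receptor signalling to ERK, had reads in most epiblast-like and hypoblast-like cells. It ranged from 0 to 125.4 CPM in epiblast-like cells (median 24.7 CPM) and from 0 to 115.9 CPM in hypoblast-like cells (median 12.9 CPM). In trophectoderm-like cells the median was 0 and the highest cell had 22.4 CPM. The pooled levels of 34.7 CPM (33.9 to 35.5) and 32.4 CPM (31.4 to 33.4) in the first pair of classes were 1.07-fold apart on the scale of (CPM + 1), and the middle 50% of cells overlapped. Within the hypoblast-like class, SPRY2 correlated inversely with the summed hypoblast markers (r = -0.38, rho = -0.39) and positively with the summed epiblast markers (r = 0.34, rho = 0.31). At 1.25 CPM (1.16 to 1.35), the trophectoderm-like level was, on the same scale, 15.9-fold below the epiblast-like level (log2 ratio 3.99) and 14.8-fold below the hypoblast-like level (log2 ratio 3.89). SPRY2 reads were found in 40 epiblast-like cells (80%), 24 hypoblast-like cells (75%) and 28 trophectoderm-like cells (25.2%).

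SPRY4, the other Sprouty gene examined, was sparse in all classes. It had a pooled 3.75 CPM in the hypoblast-like class, 1.67 CPM in the trophectoderm-like class and 0.734 CPM in the epiblast-like class, and the median cell of each class had no read. The hypoblast-like level rested on 1 cell at 88.5 CPM, which carried 50% of the reads of its class and left 1.92 CPM when removed. Reads were found in 8 hypoblast-like cells (25%), 44 trophectoderm-like cells (39.6%) and 12 epiblast-like cells (24%).

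DUSP6, the phosphatase that removes the activating phosphates of ERK, had a different distribution from SPRY2. Its pooled level was highest in trophectoderm-like cells, with 17.7 CPM (17.3 to 18.1), and lower in hypoblast-like cells, with 5.65 CPM (5.24 to 6.07), and in epiblast-like cells, with 3.12 CPM (2.89 to 3.36). The median cell of each of the 3 classes had no DUSP6 read, and the highest cells had 339, 87.9 and 125.1 CPM. On the scale of (CPM + 1), the trophectoderm-like level was 4.54-fold the epiblast-like level (log2 ratio of epiblast-like over trophectoderm-like -2.18). The trophectoderm-like level came mainly from the CCR7-low cluster, with 29.9 CPM. The CCR7-high cluster had 4.77 CPM, below the hypoblast-like level. A single cell held 76% of the DUSP6 reads of the epiblast-like class, and the level was 0.763 CPM without it, while 1 hypoblast-like cell held 59.6% of the reads of its class and left 2.37 CPM. Reads of DUSP6 were found in 52 trophectoderm-like cells (46.8%, 37.3% to 56.6%), 7 of 32 hypoblast-like cells (21.9%, 9.28% to 39.97%) and 7 of 50 epiblast-like cells (14%, 5.82% to 26.7%).

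ETV4 and ETV5, ETS-family transcription factors downstream of FGF receptors, were both highest in epiblast-like cells. ETV4 ranged from 0 to 131.3 CPM there (median 17.4 CPM), from 0 to 37.5 CPM in hypoblast-like cells (median 0.977 CPM) and from 0 to 55.1 CPM in trophectoderm-like cells (median 0). The middle 50% of epiblast-like cells (6.81 to 33.6 CPM) lay above that of hypoblast-like cells (0 to 6.16 CPM), though the full ranges overlapped. The pooled levels were 26.5 CPM (25.8 to 27.2), 5.10 CPM (4.72 to 5.51) and 2.53 CPM (2.39 to 2.67), so that ETV4 was, on the scale of (CPM + 1), 4.51-fold higher in epiblast-like than in hypoblast-like cells and 7.80-fold higher than in trophectoderm-like cells (log2 ratios 2.17 and 2.96).

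ETV5 was less often detected, in 23 of 50 epiblast-like cells (46%, 31.8% to 60.7%), 4 of 32 hypoblast-like cells (12.5%, 3.51% to 29%) and 19 trophectoderm-like cells (17.1%, 10.6% to 25.4%). Its median was 0 in each class, and the highest cells had 73.9, 3.26 and 26.7 CPM. The pooled levels of 14.3 CPM (13.8 to 14.9), 0.451 CPM (0.343 to 0.583) and 0.531 CPM (0.470 to 0.597) made ETV5, on the scale of (CPM + 1), 10.6-fold higher in epiblast-like than in hypoblast-like cells and 10.0-fold higher than in trophectoderm-like cells (log2 ratios 3.40 and 3.32). In epiblast-like cells 21 of 50 had reads of both ETV genes, 24 of ETV4 alone and 2 of ETV5 alone. By the median cell, ETV5 showed no difference between classes, since more than 50% of the cells of each class had no read.

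Among the 15804 genes with a read in at least 20 cells, 2.39% were at least 4-fold higher in epiblast-like than in hypoblast-like cells, and 3 of the 10 genes examined were among them, namely FGF4, ETV4 and ETV5. In the other direction 1.14% of all genes and 0 of the 10 passed. Between epiblast-like and trophectoderm-like cells, 5.2% of all genes were at least 4-fold higher in the former, as were FGF4, SPRY2, ETV4 and ETV5 (4 of 10), and 2.45% were at least 4-fold lower, with DUSP6 the 1 of 10. Hypoblast-like cells had 2.65% of all genes at least 4-fold above trophectoderm-like cells, with FGFR1, FGFR2 and SPRY2 (3 of 10), and 2.35% below, with 0 of 10. Without the 1 cell of each class with the most reads of a gene, a setting chosen after seeing the data, DUSP6 was also at least 4-fold lower in hypoblast-like than in trophectoderm-like cells (log2 ratio -2.24 in place of -1.49). The shares of the 10 genes that were higher exceeded the share of all genes in each of these comparisons, but the genes were chosen with earlier results of these data known, and the classes were made from the same cells. The median log2 ratio of the 10 genes was -0.30 for epiblast-like over hypoblast-like cells, 1.07 for epiblast-like over trophectoderm-like cells and 0.81 for hypoblast-like over trophectoderm-like cells, beside 0.11, 0.07 and -0.02 over all genes.

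**Figure D3:**
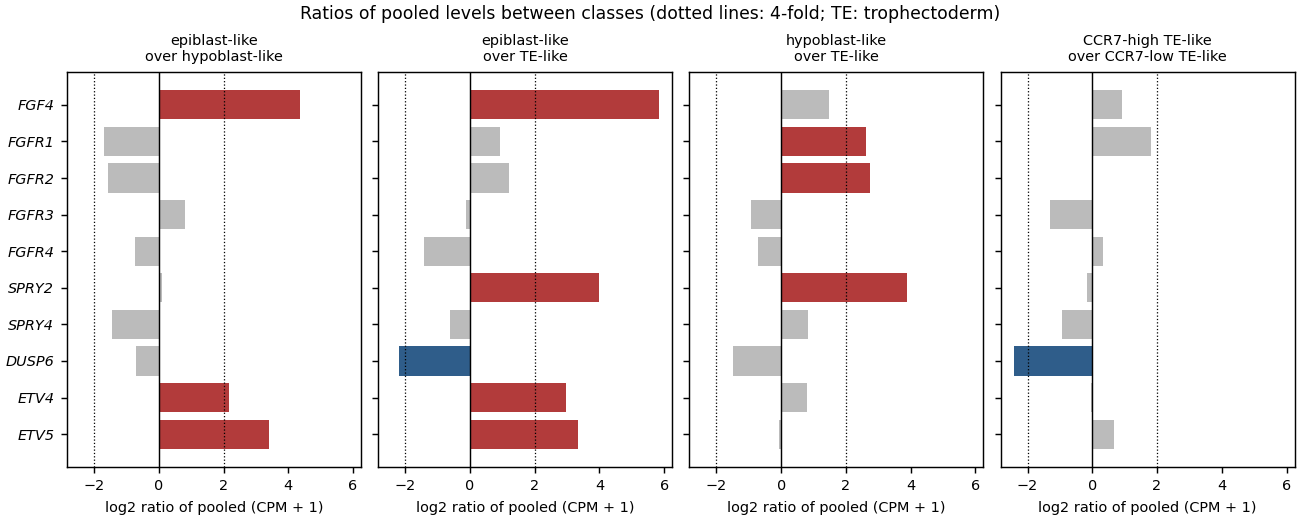
Log2 ratio of the pooled (CPM + 1) of each gene between 2 classes, named above each panel (TE-like is trophectoderm-like); dotted lines mark 4-fold, red bars are at least 4-fold higher and blue bars at least 4-fold lower in the first class. FGF4 has the longest bars, 4.35 and 5.83 for epiblast-like cells, and DUSP6 is the only gene past 4-fold in the negative direction, at -2.18 and -2.42.

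Over all cells that entered, ETV4 and FGF4 had r = 0.72 (rho = 0.64), and FGF4 was the gene most like ETV4 among all genes tested. Within the 50 epiblast-like cells the pair kept r = 0.48 (rho = 0.33), with reads of both in 43 cells. FGF4 and SPRY2 had r = 0.46 (rho = 0.29) in epiblast-like cells and reads of both in 39 of them. SPRY2 and ETV4 had r = 0.42 (rho = 0.31), and SPRY2 and ETV5 had r = 0.41 (rho = 0.40). FGF4 and ETV5 had r = 0.12 (rho = 0.11). With the receptors there, FGF4 had r = 0.55 (rho = 0.36) for FGFR4, r = 0.29 (rho = 0.36) for FGFR1, r = 0.18 (rho = 0.21) for FGFR2 and r = 0.08 (rho = 0.06) for FGFR3, and FGFR1 and FGFR2 had r = 0.55 (rho = 0.45). In epiblast-like cells, the Spearman correlation with total reads was between -0.35 and 0.18 for the 9 genes with enough reads, and lowest for FGFR3. In hypoblast-like cells it was between -0.28 and 0.37 for 7 genes, and highest for SPRY2, whose correlations with the marker lists there were of similar size. In hypoblast-like cells, SPRY2 and ETV4 reads occurred together in 15 of 32 cells, SPRY2 alone in 9 and ETV4 alone in 5. SPRY2 was thus present in hypoblast-like cells whose median FGF4 level was 0.

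**Figure D4:**
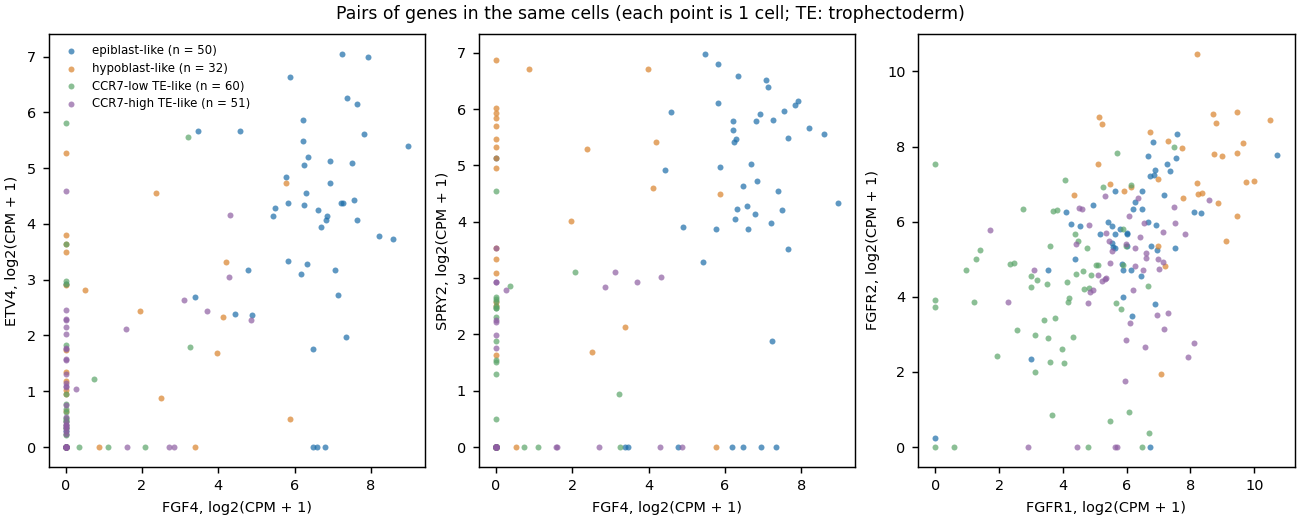
Levels of FGF4 and ETV4, FGF4 and SPRY2, and FGFR1 and FGFR2 in the same cell, as log2(CPM + 1); each point is 1 cell, coloured by class (TE-like is trophectoderm-like). Of 50 epiblast-like cells, 43 have reads of both FGF4 and ETV4 and 39 of both FGF4 and SPRY2 (the others lie at 0 on at least 1 axis), some hypoblast-like cells reach like SPRY2 levels with little or no FGF4, and the correlation of FGF4 and ETV4 over all cells is r = 0.72.

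The genes whose pattern over all cells was most like that of FGF4 were HEY2 (r = 0.86), LDB2 (r = 0.85) and PTH1R (r = 0.84). HEY2 had 86 CPM in the epiblast-like, 5.59 CPM in the hypoblast-like and 1.60 CPM in the trophectoderm-like class. For SPRY2 the closest genes were OTUD1 (r = 0.72), CD200 (r = 0.68) and GDF3 (r = 0.67), for ETV5 ADD2 (r = 0.55), and for DUSP6 TP63 (r = 0.47), a transcription factor with 18.2 CPM in trophectoderm-like cells against 2.29 CPM in epiblast-like cells and 1.34 CPM in hypoblast-like cells. Among the receptors, the closest genes were ENAH for FGFR1 (r = 0.57), TMX4 for FGFR2 (r = 0.56), LAMA5 for FGFR3 (r = 0.60) and FBLN1 for FGFR4 (r = 0.63). For SPRY4 no gene exceeded r = 0.32. How much of this likeness comes from differences between the classes was not tested.

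Among trophectoderm-like cells, DUSP6 had the largest ratio of the 10 genes between the CCR7-low and the CCR7-high cluster. It ranged from 0 to 339 CPM in the 60 CCR7-low cells (median 6.64 CPM) and from 0 to 33.1 CPM in the 51 CCR7-high cells (median 0). The CCR7-low cells held both the highest DUSP6 values of all cells and many cells at 0, so the clusters overlapped. The pooled levels were 29.9 CPM (29.2 to 30.6) and 4.77 CPM (4.50 to 5.04), a 5.36-fold difference on the scale of (CPM + 1) (log2 ratio -2.42), and reads were found in 35 of 60 and 17 of 51 cells. DUSP6 was the 1 of the 10 genes at least 4-fold lower in the CCR7-high cluster, beside 0.728% of all genes, and 0 of the 10 were at least 4-fold higher, beside 1.54% of all genes.

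The receptors differed less between these clusters. FGFR1 had 88.3 CPM in CCR7-high and 24.2 CPM in CCR7-low cells, with medians of 62.2 and 15.5 CPM, a 3.54-fold difference on the scale of (CPM + 1). FGFR3 had 32.3 CPM in CCR7-high and 81 CPM in CCR7-low cells, with medians of 15.7 and 56 CPM. FGFR2 was level in pooled reads, at 32.4 and 32.6 CPM, with medians of 27.1 and 19 CPM, and FGFR4 had 35.3 and 28.1 CPM. Over 18 alternatives the log2 ratio of FGFR2 was between -0.71 and 0.49. SPRY4 had 0.814 CPM in CCR7-high cells, or 0.541 CPM without the 1 cell that held 35.8% of its reads, and 2.48 CPM in CCR7-low cells. DUSP6 and SPRY4 reads occurred together in 16 of the 60 CCR7-low cells. The border of the clusters moved with the settings. When the cells were entered in the order of their number, a setting chosen after seeing the data, the clusters held 72 and 39 cells, and the log2 ratio of DUSP6 was -2.34.

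The other genes of the pathway were examined in 5 lists. Of the 17 other FGF ligands, 5 had reads in at least 20 cells, and FGF2 and FGF8 were those at least 4-fold higher in epiblast-like than in trophectoderm-like cells, where 5.2% of all genes passed. FGF2 had 9.26 CPM in the epiblast-like, 0.0700 CPM in the hypoblast-like and 0.168 CPM in the trophectoderm-like class, with reads in 43, 2 and 6 cells. FGF8 had 5.82, 1.37 and 0.184 CPM in the same order. FGF1 had the reverse distribution, with 0.0418 CPM in epiblast-like cells and 5.41 CPM in trophectoderm-like cells, where 45 cells had a read. FGF18, named after its values were seen, was the 1 of 5 ligands at least 4-fold higher in CCR7-high than in CCR7-low cells, beside 1.54% of all genes.

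Of the 13 co-receptors and heparan sulfate enzymes, which help ligand and receptor to bind, 12 were tested, and 3 were at least 4-fold higher in epiblast-like than in trophectoderm-like cells with 1 lower, beside 5.2% and 2.45% of all genes. GPC4, a cell surface proteoglycan, had 121.1 CPM in the epiblast-like, 44.4 CPM in the hypoblast-like and 4.14 CPM in the trophectoderm-like class. HS6ST1, a heparan sulfate 6-O-sulfotransferase, had 63.9, 10.7 and 5.30 CPM in the same order, with reads in 50 of 50 epiblast-like cells. SDC2, a syndecan, had 9.61 CPM in epiblast-like cells and was at or below 0.246 CPM in the other classes, from reads in 21 of 50 epiblast-like cells. SDC1, another syndecan, had 78.5 CPM in CCR7-high trophectoderm-like cells, 2.47 CPM in CCR7-low cells and 5.40 CPM in epiblast-like cells. Few cells carried this level, as the median CCR7-high cell had 6.15 CPM and the highest 1081 CPM, and the median cell of both the epiblast-like and the trophectoderm-like class had no SDC1 read. Hypoblast-like cells had 20 CPM of SDC1, with reads in 23 of 32 cells. Their median of 12.6 CPM was above that of CCR7-high cells. The ratio of SDC1 between epiblast-like and trophectoderm-like cells (log2 ratio -2.66) turned to 0.64 at a clustering resolution of 1.5, where 2 trophectoderm-like cells with 166.4 and 1081 CPM of SDC1 moved to the epiblast-like class.

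All 19 adaptor, RAS, RAF, MEK and ERK genes between receptor and nucleus were tested, and 0 reached 4-fold in any of the 4 comparisons, with medians of the log2 ratio between -0.05 and 0.10 over the 19 genes. Since between 0.728% and 5.2% of all genes passed 4-fold in a given comparison and direction, a count of 0 among 19 genes is near the background. Of 15 other negative feedback genes, 11 were tested. DUSP5, a nuclear ERK phosphatase, had 37.5 CPM in the hypoblast-like, 34.4 CPM in the trophectoderm-like and 6.56 CPM in the epiblast-like class. Within the trophectoderm-like class its distribution was opposite to that of DUSP6, with 67.1 CPM in the CCR7-high and 3.56 CPM in the CCR7-low cluster and reads in 51 of 51 and 21 of 60 cells (log2 ratio 3.90). With cells entered in the order of their number this log2 ratio was 2.45, and over 18 alternatives it ranged from 2.36 to 5.98. DUSP4 had 12.3 CPM in the hypoblast-like, 2.21 CPM in the trophectoderm-like and 1.82 CPM in the epiblast-like class. DUSP4 and DUSP5 were the 2 of 11 feedback genes at least 4-fold lower in epiblast-like than in hypoblast-like cells, beside 1.14% of all genes.

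Of 13 other genes known to respond to ERK, 12 matched an identifier and 10 were tested. PLAUR, the urokinase receptor, had 330 CPM in the epiblast-like, 244 CPM in the hypoblast-like and 14.5 CPM in the trophectoderm-like class, an order shared with SPRY2. EPHA4, an ephrin receptor, had 18.7, 19.2 and 1.22 CPM in the same order. PHLDA1 was highest in hypoblast-like cells, with 115.3 CPM beside 11.1 CPM in the epiblast-like and 27.7 CPM in the trophectoderm-like class. MYC, a transcription factor of cell growth, had 96.6 CPM in the trophectoderm-like, 27 CPM in the epiblast-like and 21 CPM in the hypoblast-like class. In epiblast-like against hypoblast-like cells, FOS and CCND1, named after their values were seen, were the 2 of 10 genes at least 4-fold higher and PHLDA1 the 1 lower, beside 2.39% and 1.14% of all genes. EPHA4 and PLAUR were at least 4-fold higher in epiblast-like than in trophectoderm-like cells and 0 of 10 were lower, beside 5.2% and 2.45%. Hypoblast-like cells had PHLDA1, EPHA4 and PLAUR at least 4-fold above trophectoderm-like cells and MYC below, beside 2.65% and 2.35%.

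**Figure D5:**
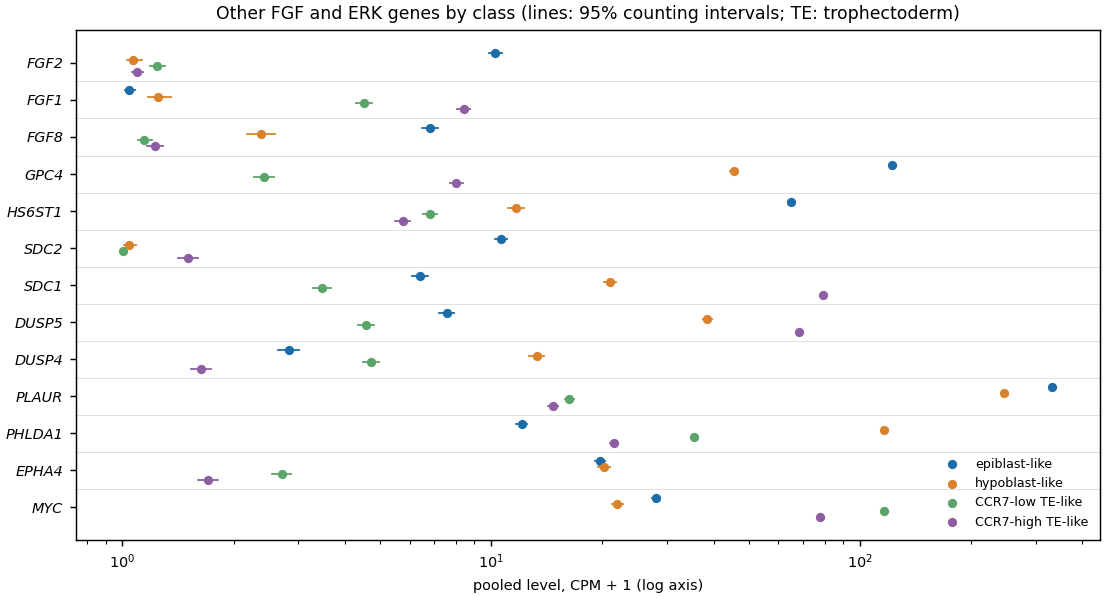
Pooled level (CPM + 1, log axis) of the 13 other ligand, co-receptor, feedback and ERK-responsive genes with the largest ratios of their lists, in the 4 clusters (TE-like is trophectoderm-like); lines are 95% Poisson intervals and cover counting error only. FGF2, FGF8, GPC4, HS6ST1 and SDC2 stand highest in epiblast-like cells, and DUSP5 and SDC1 differ between the trophectoderm-like clusters, SDC1 through few cells with up to 1081 CPM.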

How the data were processed

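The authors deposited counts of reads per Ensembl gene per cell, without normalization. The methods state trimming with FastP and alignment to the chimpanzee genome and counting with STAR, while the submitters' processing notes list Trim Galore 0.6.6, STAR 2.7.7a and a human build without giving their role. Nothing states that counting used strand, so reads of overlapping or antisense genes cannot be told apart. The 10 genes and all lists were chosen with earlier results of these data known.

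Cells with at least 4000 reads and 8000 detected genes were kept, as the methods word it, which leaves 193 of 217 cells here, more than the study's text gives. Genes with a read in at least 20 of them were tested. Scanpy 1.11.5 normalized and log-transformed the counts and built 50 components and 30 neighbours, and leidenalg 0.10.2 clustered them at a resolution of 1 with seed 0, with cells in the deposited order. A cluster took the class with the highest mean standardized level of its marker list and at least 3 markers at 1 CPM. Levels are CPM of summed counts, and ratios add 1 CPM. From each other list, the up to 4 genes with the largest ratio between 2 classes among those past 4-fold were named, and for each of the 10 genes up to 3 genes with the highest Pearson's r over all cells that passed. Reads of symbols with more than 1 identifier were summed, and TDGF1 and IER3 had no match. Doublets were not called. Alternatives covered cell filters, clustering, thinning, summaries over cells, scaling, pseudocounts and thresholds. All cells being 1 sample, no replicate could be left out. Python 3.11.15 and scipy 1.17.1 were used.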

Additional observations from a re-analysis of the deposited data

Results flagged for a closer look

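The 24 cells with fewer than 8000 detected genes entered no comparison, and each of the 10 genes had reads in them above the level of 3 counts, which is 0.0685 CPM over these cells. FGF4 had 28 CPM, from 8 of the 24 cells. The receptors had 235 CPM (FGFR1), 90.9 CPM (FGFR2), 89.3 CPM (FGFR3) and 54 CPM (FGFR4), from 17 to 22 cells. SPRY2 had 14.4 CPM, SPRY4 2.53 CPM, DUSP6 24.4 CPM, ETV4 10.5 CPM and ETV5 0.867 CPM, the last from 1 cell. These cells were not assigned to a class, and no explanation was tested.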

How the results depend on the processing

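The 12 ratios past 4-fold kept their direction or came to 0 in every alternative. Under the other cell filters, clusterings, thinning, totals, size factors and means per cell, the 4 counts of genes past 4-fold stayed within 1.5 times the values given. With the median cell in place of summed reads, 3 genes instead of 5 were past 4-fold between epiblast-like and trophectoderm-like cells, since ETV5 and DUSP6 came to 0, and between epiblast-like and hypoblast-like cells FGFR1 passed (-2.04) while ETV5 did not. A pseudocount of 10 CPM left 1 gene, FGF4, for epiblast-like against hypoblast-like and 1 against trophectoderm-like cells, and 0 for CCR7-high against CCR7-low cells, while hypoblast-like against trophectoderm-like cells lost SPRY2 (1.91). A pseudocount of 0.1 CPM added SPRY4 for epiblast-like against hypoblast-like cells (-2.21) and FGF4 for hypoblast-like against trophectoderm-like cells (2.12). At 2-fold, 6 genes passed for epiblast-like against hypoblast-like, 5 for hypoblast-like against trophectoderm-like and 3 for CCR7-high against CCR7-low cells. At 8-fold, 3 passed for epiblast-like against trophectoderm-like, 1 for hypoblast-like against trophectoderm-like and 0 for CCR7-high against CCR7-low cells. SDC1 reversed, with a log2 ratio of 0.64 for epiblast-like over trophectoderm-like cells at a resolution of 1.5, where the 2 cells named above changed class. Leaving out cells with at least 5 markers of each of 2 classes removed 58 cells and kept 4 of 32 hypoblast-like cells, so values without them rest on those 4 cells, and the log2 ratio of FGF4 for epiblast-like over hypoblast-like cells went from 4.35 to 6.77, while DUSP6 went from -1.49 to -4.18 for hypoblast-like over trophectoderm-like cells, past 4-fold. With the same cells left out, ETV4 went from 2.17 to 3.31 for epiblast-like over hypoblast-like cells. FGFR3 went from -0.94 to -1.82 for hypoblast-like over trophectoderm-like cells. FGF4 then had a log2 ratio of -0.63 for hypoblast-like over trophectoderm-like cells in place of 1.48. SPRY4 turned from 0.83 to -1.41 in the same comparison, and for epiblast-like over hypoblast-like cells SPRY4 turned from -1.45 to 0.76, DUSP6 from -0.69 to 0.50 and SPRY2 from 0.10 to -0.59, these turned ratios not being past 4-fold. Over 18 alternatives the log2 ratio of DUSP6 between the trophectoderm-like clusters was between -2.95 and -1.43, and that of DUSP5 between 2.36 and 5.98. Scaling by median ratios shifted the classes by -0.11 to 0.06 on the log2 scale. The 10 correlations recomputed under 3 alternatives kept their sign. Depth limits what a cell without a read shows, and there was no replicate. No paired analysis was possible because all cells form 1 group.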

Other observations

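The hypoblast-like class was split, after its values were seen, by the reads of its defining factors. FGFR1 had 467 CPM in the 21 cells with a GATA4 read (median cell 445 CPM) and 137.4 CPM in the 11 cells without one (median 126.8 CPM). With SOX17 in place of GATA4, it had 440 CPM in 24 cells and 98.5 CPM in 8 cells. FGFR4 had 24.8 CPM with a GATA4 read and 8.71 CPM without. FGFR2 went the other way for GATA4, with 188.7 and 288 CPM, and had 243.1 and 174.1 CPM for SOX17. The pooled level of SPRY2 also turned with the factor, with 23.7 and 47.7 CPM for GATA4 and 35.1 and 25.1 CPM for SOX17. By the median cell, SPRY2 was lower with either factor, at 7.55 and 38.1 CPM for GATA4 and 12.9 and 14 CPM for SOX17. FGF4 was low in both GATA4 groups, at 5.58 and 2.37 CPM.

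In CCR7-low trophectoderm-like cells, FGFR3 and FGFR4 correlated with each other (r = 0.56, rho = 0.50, n = 60). The pair had r = 0.26 (rho = 0.15) in CCR7-high cells. In the CCR7-low cells both genes fell with total reads (rho = -0.26 for FGFR3 and -0.35 for FGFR4). The part of depth in their correlation was not tested. Both also followed the summed hypoblast markers there (r = 0.62 and 0.75), of which LAMA1, a laminin chain, made up 92.5% of the reads in trophectoderm-like cells.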
